A study of Mus musculus with 4 samples.

Results

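Cyclins and cyclin-dependent kinases (CDKs), the engine of the cell cycle, were examined together with the CDK inhibitors in maps of open chromatin from mouse embryonic hearts. Members were chosen by gene symbol alone, as the nuclear protein-coding genes of GENCODE release M21 named Ccn plus a letter and an optional number, Cdk plus a number, or *Cdkn1a*, *Cdkn1b*, *Cdkn1c*, *Cdkn2a*, *Cdkn2b*, *Cdkn2c* or *Cdkn2d*. The rule found 50 of 21938 nuclear protein-coding genes, namely 25 cyclins and 18 CDKs, called activators here, and 7 inhibitors. ATAC-seq had been run on E9.5 (embryonic day 9.5) hearts of wild-type (WT) and *Smyd1-KO* embryos, with 2 libraries per genotype and 4 in all. The *Smyd1-KO* embryos were homozygous for a mutated germline allele of *Smyd1*, a histone methyltransferase gene of heart and skeletal muscle, so all cells of the heart, not only the muscle cells, carried the mutation. Each library came from 4 pooled hearts, of which 40000 viable cells were taken. No cell type was sorted, and every value is an average over all the cells of the heart.

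In ATAC-seq, the Tn5 transposase inserts adapters into DNA that nucleosomes leave free, and stretches rich in such insertions stand out as peaks. The deposited lists held 25745 peaks that were at least 2-fold stronger in *Smyd1-KO* hearts, called gained peaks here, and 106 peaks that were stronger in WT hearts. Every peak was 149 bp wide. The value of a gained peak, its score, is the tag value that the authors deposited for it in the pooled *Smyd1-KO* libraries. All 25745 of these scores are multiples of 0.5 and only 12856 are whole numbers, so they are scaled or averaged tags rather than plain counts, and the scaling is not given in the sources used here. They are given in tags. A score is the height of a peak in *Smyd1-KO* hearts, not the size of its difference from WT. The 2 libraries of a genotype were pooled before the peaks were called, so no score has a replicate error, the depth of each library is unknown from the lists, and no difference between the genotypes could be tested over replicates. The intervals given for shares of genes are exact binomial intervals at 95% confidence that cover counting error only, and genes are not replicates of a condition. Among markers of the tissue, 6 of 8 cardiomyocyte genes, 1 of 6 endothelial genes and 1 of 6 erythroid genes had a gained peak within 3 kb of a transcription start site (TSS). Of all protein-coding genes, 51.2% had one. The marker counts are small and describe the gained list, not which cells were in the hearts.

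A cyclin binds a CDK and switches on its kinase. D type cyclins with *Cdk4* or *Cdk6* and E type cyclins with *Cdk2* carry a cell from G1 into S phase, A type cyclins act in S and G2 phase, and B type cyclins with *Cdk1* drive mitosis. Other cyclins and CDKs, such as *Ccnh* with *Cdk7*, *Ccnt1* and *Ccnt2* with *Cdk9*, and *Ccnc* with *Cdk8* or *Cdk19*, phosphorylate RNA polymerase II or its cofactors. *Ccnh* with *Cdk7* also forms the CDK-activating kinase, which acts on the CDKs of the cell cycle. The Cip/Kip inhibitors (*Cdkn1a*, *Cdkn1b* and *Cdkn1c*, encoding p21, p27 and p57) bind cyclin-CDK complexes broadly, while the INK4 inhibitors (*Cdkn2a*, *Cdkn2b*, *Cdkn2c* and *Cdkn2d*) bind *Cdk4* and *Cdk6*. In the embryonic heart, cardiomyocytes divide while they already contract.

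Most members carried a gained peak near a start site, activators and inhibitors alike. Of the 50 members, 41 had a gained peak within 3 kb of a TSS (82.0%, interval 68.6 to 91.4%), against 51.2% of all protein-coding genes. The count was 36 of 43 activators (83.7%, interval 69.3 to 93.2%) and 5 of 7 inhibitors (71.4%, interval 29.0 to 96.3%). The share of activators was 12.3 percentage points above that of inhibitors, with a 95% Newcombe interval of -12.2 to 48.8 points. That interval spans 0, and 7 inhibitors cannot separate the classes. The difference was 21.9 points when only the 5′ end of each gene record was used as its TSS and 3.0 points when peaks near more than 1 coding gene were left out. Cyclins had a peak in 20 of 25 cases (80.0%) and CDKs in 16 of 18 (88.9%).

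The opposite direction was empty among the members. None of the 50 genes had a WT-enriched peak within 3 kb, and the nearest one to any member was 794980 bp from *Ccnf*, the gene of the substrate receptor cyclin F. A count of 0 of 50 allows a share of up to 7.11% (exact binomial interval). Across all protein-coding genes, 0.0228% (5 of 21938) had a WT-enriched peak within 3 kb, so a count of 0 among 50 genes is near the background.

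By role, every gene of 4 groups had a gained peak within 3 kb of a TSS. These were the 7 transcription cyclins, the 4 cell cycle CDKs, the 6 transcription CDKs and the 4 INK4 inhibitors. A peak was present at 7 of 10 cell cycle cyclins, 6 of 8 other cyclins, 6 of 8 other CDKs and 1 of 3 Cip/Kip inhibitors. Each of the 4 complete groups lost a gene under some alternative setting. With each peak given to the nearest gene, *Ccnk* and *Ccnt2* were lost. With only the 5′ end of the gene record as TSS, *Cdk19* and *Cdkn2a* were lost. With peaks near 1 coding gene only, *Cdk2* was lost. The groups are small, and their counts stand beside 51.2% of all protein-coding genes and 77.3% of those with a CpG-rich TSS (one with high GC and CpG content), with no test between them.

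**Figure D1:**
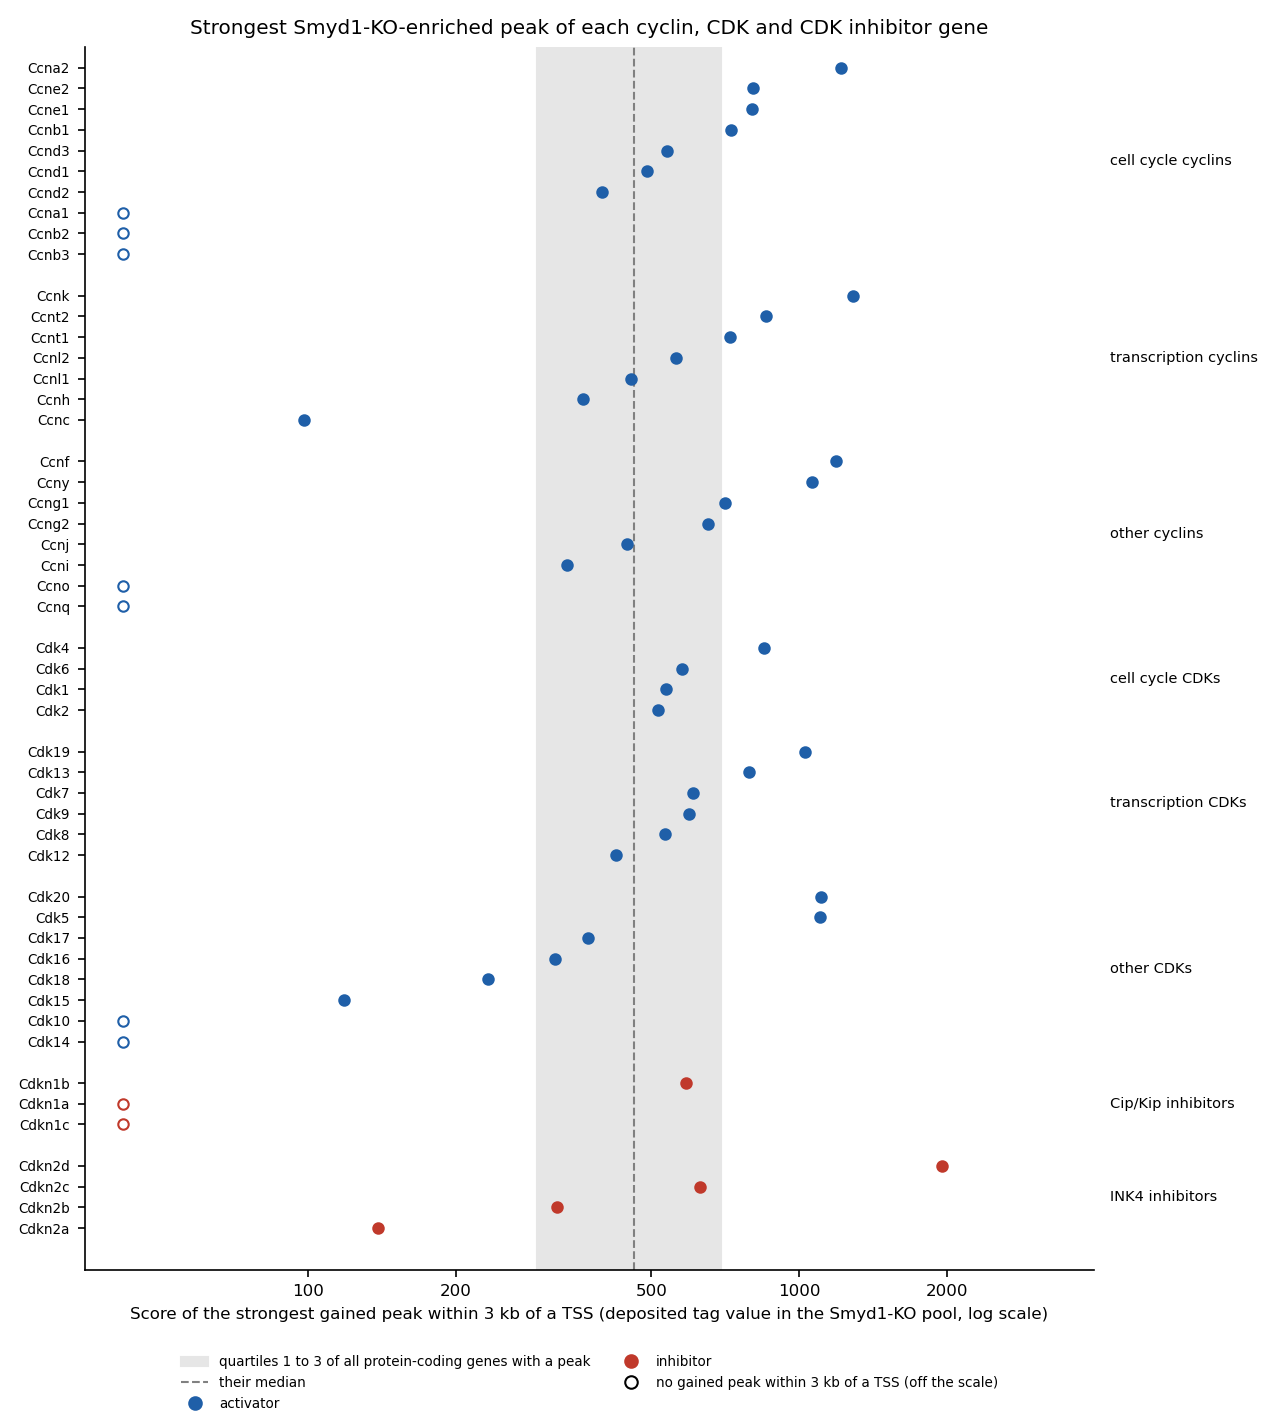
Score of the strongest gained peak within 3 kb of a TSS for each of the 50 genes, in deposited tags of the pooled *Smyd1-KO* libraries on a log axis, 1 line per gene and grouped by role, with activators in blue and inhibitors in red. Filled points run from 98.0 tags (*Ccnc*) to 1953.0 tags (*Cdkn2d*), the grey band spans 292.0 to 693.0 tags, which are the quartiles of all protein-coding genes with a peak, the dashed line is their median of 460.5 tags, and the 9 open points are genes without such a peak.

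Among inhibitors, the strongest peak of the whole set lay at *Cdkn2d*, which encodes p19INK4d. That peak scored 1953.0 tags and covered 1 of the 3 TSSs of the gene, with its centre 22 bp downstream of it, and the highest score at any protein-coding gene was 2050.0 tags. *Cdkn2c*, which encodes p18INK4c, had 3 gained peaks, of 629.5, 209.5 and 202.0 tags. *Cdkn1b*, the gene of p27, had a peak of 588.0 tags that ended 41 bp before its nearest TSS. *Cdkn2b*, the gene of p15INK4b, had a peak of 322.0 tags that began 14 bp inside the gene. *Cdkn2a* had the weakest peak of the inhibitors, with 139.0 tags. *Cdkn2a* is read from 2 TSSs, an outer one at the 5′ end of the gene record for p19Arf and an inner one for p16INK4a, and the peak covered the inner one. The 5 scores thus spread from below the lower quartile of all protein-coding genes with a peak, at 292.0 tags, to above the upper one, at 693.0 tags.

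*Cdkn1a* and *Cdkn1c* were the inhibitors without a peak. Neither had a gained peak within 10 kb of a TSS. *Cdkn1a* encodes p21, the classic target gene of p53. *Cdkn1c* encodes p57 and is an imprinted gene. The genes of p53 itself (*Trp53*, 700.0 tags) and of its regulators *Mdm2* (558.5 tags) and *Mdm4* (496.5 tags) did have gained peaks within 3 kb.

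The DNA under these peaks is shown for the 2 inhibitors whose strongest peak has at least 40 bases outside annotated untranslated regions. The coordinates are mm10 (GRCm38), counted from 1, and each sequence was read from that genome 5′ to 3′ on the strand of the gene. Capitals mark matches to a CCAAT box (CCAAT), a GC box (GGGCGG), a cell cycle homology region or CHR (TTTGAA), an E2F site (TTTGGCGC or TTTCCCGC or TTTCGCGC or TTTGCCGC) or an E box (CACGTG), each searched on both strands. The *Cdkn1b* sequence is the whole peak at chr6:134920212-134920360 on the plus strand, upstream of the first exon. The *Cdkn2a* sequence is chr4:89282193-89282269 on the minus strand, the part of its peak upstream of the inner TSS.
Cdkn1b: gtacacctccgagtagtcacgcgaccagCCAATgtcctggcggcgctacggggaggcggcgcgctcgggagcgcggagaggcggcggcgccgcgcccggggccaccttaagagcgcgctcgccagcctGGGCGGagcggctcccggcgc
Cdkn2a: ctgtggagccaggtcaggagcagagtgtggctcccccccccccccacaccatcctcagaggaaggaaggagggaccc
The *Cdkn1b* peak held 1 CCAAT box and 1 GC box. The part of the *Cdkn2a* peak shown holds no match, and the 1 CCAAT box and 1 GC box counted in that peak lay in the part not shown. The strongest peaks of *Cdkn2b*, *Cdkn2c* and *Cdkn2d* lay wholly within annotated 5′ untranslated regions.

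The 7 cell cycle cyclins with a gained peak had strongest scores of 397.5 to 1221.0 tags. *Ccna2*, the A type cyclin of dividing somatic cells, had a single peak of 1221.0 tags that covered a TSS, which put it at the 97.2 percentile of protein-coding genes with a peak. The E type cyclins *Ccne1* and *Ccne2* scored 802.5 and 804.5 tags and were nearly equal. *Ccnb1*, the main mitotic cyclin, scored 727.5 tags with its peak over a TSS. The 3 D type cyclins scored lower than these. *Ccnd1* had a peak of 489.5 tags that lay 1620 bp upstream, the farthest nearest peak of any member counted. *Ccnd2* had peaks of 397.5 and 301.0 tags. *Ccnd3* had a peak of 322.0 tags close to a TSS and another of 537.5 tags 2763 bp away, which lay in the 5′ untranslated region of its neighbour *Taf8*.

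The kinases of these cyclins all had a gained peak over a TSS or, at *Cdk4*, next to one. *Cdk4* scored 850.0 tags in a peak that ended 7 bp before a TSS. *Cdk6*, which shares the D type cyclins with *Cdk4*, had peaks of 576.5 and 285.5 tags. *Cdk1*, the mitotic kinase, scored 536.5 tags. *Cdk2*, the partner of the E and A type cyclins, had peaks of 516.0 and 314.5 tags, and both also lay within 3 kb of a TSS of *Pmel*.

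The 3 cell cycle cyclins without a gained peak were *Ccna1*, *Ccnb2* and *Ccnb3*, and none of them had one within 10 kb. *Ccna1* and *Ccnb3* are known mainly from germ cells. *Ccnb2* is a mitotic cyclin of somatic cells, like *Ccnb1*, and the pair differ in these lists. The sequences at both promoters are shown beside that of *Cdk1*, together with the peak of *Ccnd1*, the 1 member peak with an E2F match. These 4 were chosen after the motif counts had been seen. Capitals have the same meaning as above. The *Ccnb1* sequence is chr13:100786571-100786652 and the *Cdk1* sequence is chr10:69352939-69353013, both on the minus strand and both the part of the peak upstream of the annotated untranslated region. The *Ccnd1* sequence is the whole peak at chr7:144941545-144941693 on the minus strand, in intergenic DNA. The *Ccnb2* sequence is the upstream part of the RefSeq promoter window (GRCm38.p6), the 250 bases before the start at chr9:70421555-70421804 on the minus strand, where no gained peak lies.
Ccnb1: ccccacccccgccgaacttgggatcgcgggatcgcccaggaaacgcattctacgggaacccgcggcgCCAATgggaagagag
Cdk1: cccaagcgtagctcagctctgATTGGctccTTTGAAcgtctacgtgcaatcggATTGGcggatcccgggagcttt
Ccnd1: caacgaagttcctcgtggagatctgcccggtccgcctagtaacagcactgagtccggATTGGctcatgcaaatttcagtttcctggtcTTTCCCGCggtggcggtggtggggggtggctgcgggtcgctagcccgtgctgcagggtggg
Ccnb2: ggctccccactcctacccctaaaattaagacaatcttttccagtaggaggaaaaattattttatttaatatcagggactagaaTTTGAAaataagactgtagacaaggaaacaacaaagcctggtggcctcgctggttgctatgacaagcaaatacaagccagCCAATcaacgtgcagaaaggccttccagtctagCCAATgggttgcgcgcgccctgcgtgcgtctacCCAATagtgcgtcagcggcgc
The 250 bases of *Ccnb2* held 3 CCAAT boxes and 1 CHR match and had no gained peak, and its full RefSeq window, which runs on past the start, also held a GC box. The *Cdk1* stretch held 2 CCAAT boxes and 1 CHR match, and its whole peak held 2 of each. The *Ccnb1* stretch held 1 CCAAT box and its whole peak held 2. The stretches differ in length, so these numbers are not comparable between genes. A match is a run of letters and was not tested as a binding site.

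The 7 transcription cyclins and 6 transcription CDKs all had a gained peak within 3 kb of a TSS, at scores from 98.0 to 1288.0 tags. *Ccnk*, whose product pairs with *Cdk12* and *Cdk13*, had the highest activator score of 1288.0 tags. That peak lay 143 bp upstream of its nearest TSS and in the 5′ untranslated region of *Setd3*, a gene that starts 265 bp away on the opposite strand, so it cannot be assigned to 1 of the genes. *Cdk13* scored 792.5 and 428.0 tags and *Cdk12* scored 423.0 and 385.5 tags. *Cdk9*, the kinase of P-TEFb, had 3 peaks of 598.0, 593.0 and 559.5 tags, and its cyclins *Ccnt1* and *Ccnt2* had 723.0 and 856.5 tags. *Cdk7* scored 609.0 tags, while its partners in the CDK-activating kinase were lower, with 363.0 tags at *Ccnh* and 145.0 tags at *Mnat1*. In the kinase module of Mediator, *Cdk19* scored 1028.5 tags and *Cdk8* 533.5 tags, and their shared cyclin *Ccnc* had the lowest score of any member with a peak, 98.0 tags in a peak 630 bp upstream. The remaining transcription cyclins *Ccnl1* and *Ccnl2*, linked to splicing, scored 455.5 and 560.5 tags. Within that module alone the scores thus ran from 98.0 to 1028.5 tags.

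The peaks of the highest scoring cell cycle cyclin, cell cycle CDK, transcription cyclin and transcription CDK are shown for comparison. The capitals mark the same motifs. The sequences are *Ccna2* at chr3:36572151-36572225 on the minus strand, *Cdk4* at chr10:127063379-127063527, *Ccnk* at chr12:108179315-108179436 and *Cdk19* at chr10:40349142-40349290, the last 3 on the plus strand. *Ccna2* and *Ccnk* are shown without the bases that lie in an annotated untranslated region.
Ccna2: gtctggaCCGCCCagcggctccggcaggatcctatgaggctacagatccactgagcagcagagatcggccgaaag
Cdk4: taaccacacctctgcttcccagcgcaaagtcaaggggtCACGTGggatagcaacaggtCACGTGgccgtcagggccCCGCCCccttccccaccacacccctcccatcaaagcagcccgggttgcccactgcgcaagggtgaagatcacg
Ccnk: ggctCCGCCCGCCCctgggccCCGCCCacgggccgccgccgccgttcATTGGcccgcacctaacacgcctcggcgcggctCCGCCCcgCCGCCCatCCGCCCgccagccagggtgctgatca
Cdk19: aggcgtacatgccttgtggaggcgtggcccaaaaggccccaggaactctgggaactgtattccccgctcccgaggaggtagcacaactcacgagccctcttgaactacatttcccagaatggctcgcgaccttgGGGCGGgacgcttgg
*Ccnk* held 6 GC boxes and 1 CCAAT box, some of them overlapping. *Cdk4* held 2 E boxes and 1 GC box. The *Cdk19* peak held 1 GC box. The *Ccna2* stretch shown held 1 GC box, and the whole *Ccna2* peak, with the part not shown, held 5.

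The 59 gained peaks within 3 kb of members were set beside the 12520 gained peaks within 3 kb of any protein-coding TSS for the same 5 motifs. A GC box was in 30 of the 59 (50.8%), against 50.4% of the 12520, and a CCAAT box in 13 (22.0%), against 24.2%. A CHR match was in 3 (5.08%), against 3.14%, at *Ccnf*, *Cdk1* and *Cdk16*. The E box was in 5 (8.47%), against 4.36%, at *Ccnh*, *Cdk4*, *Cdk8*, *Cdk18* and *Cdk20*. The E2F strings were in 1 (1.69%), against 1.73%, at *Ccnd1*. Of the 7 inhibitor peaks, 5 had a GC box, 2 had a CCAAT box and 0 had a match to the other 3 motifs. The RefSeq promoter windows, which run from 250 bases before to 50 bases after a start, were matched by symbol for 40 members with 45 windows, and 36 of the 45 (80.0%) held a GC box, against 35.7% of all 32851 windows. A CCAAT box was in 46.7% of the windows of members and 37.4% of all windows, an E box in 15.6% and 7.15%, and an E2F match in 6.67% and 2.26%. A CHR match was in 13.3% of the windows of members and 17.9% of all windows. The E2F and CHR shares of members rest on 3 and 6 of the 45 windows and on 1 and 3 of the 59 peaks. These counts are too small to read a direction from them. The CCAAT box share of members in peaks was close to its background. These windows were not matched on base composition.

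Other cyclins and CDKs included some of the highest and lowest scores. *Ccnf* scored 1189.0 tags over a TSS. *Cdk20* scored 1109.0 tags over a TSS, with a second peak of 95.5 tags 2253 bp away in its 3′ untranslated region. *Cdk5*, a kinase best known from neurons, scored 1103.5 tags in a peak that also lay within 3 kb of a TSS of *Slc4a2*, which starts 307 bp away on the opposite strand. *Ccny* scored 1063.0 tags, and the p53-responsive *Ccng1* scored 706.5 tags. *Ccng2*, its relative, had 3 peaks of 653.5, 368.0 and 334.5 tags, and *Ccnj* had 2 of 446.5 and 162.0 tags. At the low end were *Cdk15* with 118.0 tags, *Cdk18* with 232.0 tags, *Cdk16* with 318.5 tags as the strongest of 3 near-equal peaks, and *Ccni* with 337.5 tags. *Cdk16*, *Cdk17* and *Cdk18* are close relatives, and *Cdk17* scored 372.5 tags at most, so all 3 lay below the median of 460.5 tags. *Ccno* and *Ccnq* had no gained peak within 3 kb, and neither did *Cdk10* and *Cdk14*. *Ccnq* encodes the cyclin that activates *Cdk10*, so neither gene of that complex had one. *Ccno* acts in cells with many cilia. The nearest peak to *Ccno*, 6193 bp away, lay in a coding exon of its neighbour *Mcidas*, and the nearest to *Cdk10*, 7023 bp away, lay in the 5′ untranslated region of *Spata2l*.

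The members nearest the 3 kb limit were few. Just inside lay the second peak of *Ccnd3* at 2763 bp and the second of *Cdk20* at 2253 bp. Just outside lay the second peak of *Cdkn2d* at 3048 bp (813.0 tags, in the 5′ untranslated region of *Kri1*), the second of *Ccnd1* at 3417 bp (355.5 tags) and the first of *Cdk14* at 3770 bp (76.5 tags, in its intron). Between 1620 bp (*Ccnd1*) and 3770 bp (*Cdk14*) there was no member's nearest peak. At 1 kb, 40 members (80.0%) had a peak, against 48.1% of all protein-coding genes, and *Ccnd1* was the gene lost. At 10 kb, 44 members (88.0%) did, against 59.6%, with *Ccno*, *Cdk10* and *Cdk14* gained. The inhibitors stayed at 5 of 7 at all 3 distances.

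**Figure D2:**
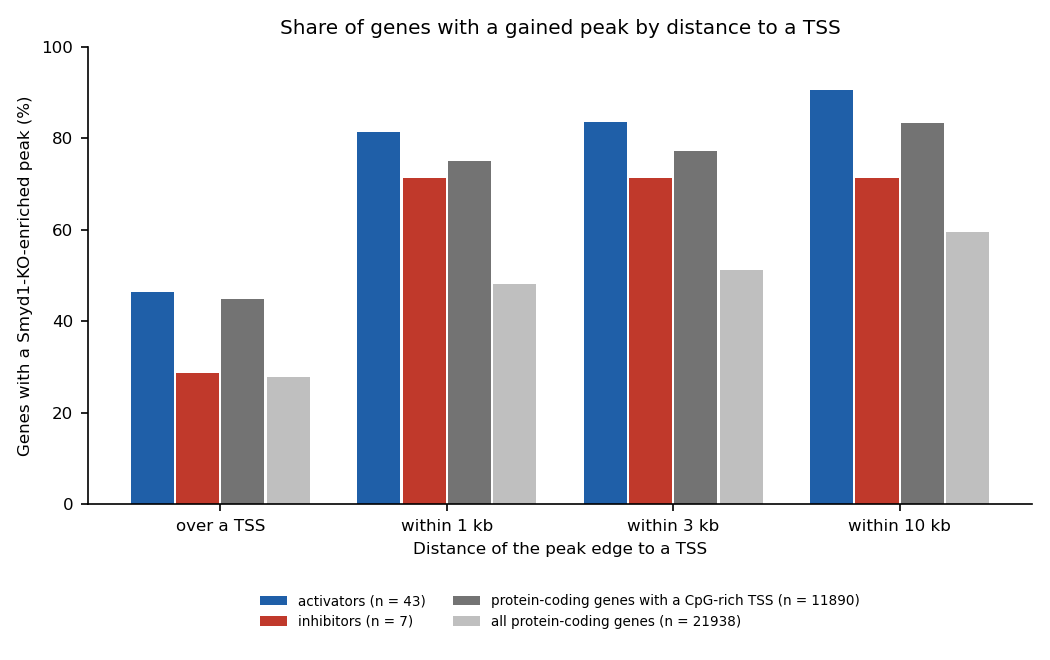
Percentage of genes with a gained peak over a TSS or within 1, 3 or 10 kb of one, for 43 activators, 7 inhibitors, 11890 protein-coding genes with a CpG-rich TSS and all 21938 protein-coding genes. At 3 kb the bars stand at 83.7%, 71.4%, 77.3% and 51.2%, so the activators lie near the genes with a CpG-rich TSS and above the genes as a whole. The inhibitor bar rests on 5 of 7 genes, and its interval of 29.0 to 96.3% holds both backgrounds. Over a TSS the inhibitors stand at 28.6%, against 44.8% and 27.8% of those 2 backgrounds.

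Base composition at the start sites moved with these shares. CpG-rich promoters are the common kind at genes that most cells use. A TSS was called CpG-rich where the 501 bp around it had at least 55% GC and an observed to expected CpG ratio of at least 0.6. By the 5′ end of the gene record, 39 of 50 members (78.0%) were CpG-rich, against 44.3% of all protein-coding genes. By any of their TSSs, 47 members were, all 7 inhibitors among them, and 39 of these 47 (83.0%, interval 69.2 to 92.4%) had a gained peak. Among all protein-coding genes with a CpG-rich TSS, 77.3% (9192 of 11890) had one, a value inside that interval, and among those without, 20.3% had one. Members also had more annotated TSSs, with a median of 5.0 against 3.0 over all protein-coding genes. With a CpG-rich TSS and at least 5 TSSs, 28 of 33 members (84.8%) and 82.3% of 6324 protein-coding genes had a gained peak. The interval of these 33 members, 68.1 to 94.9%, held that value. Beside genes with start sites of the same kind, the share of members with a gained peak was thus near the background.

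**Figure D3:**
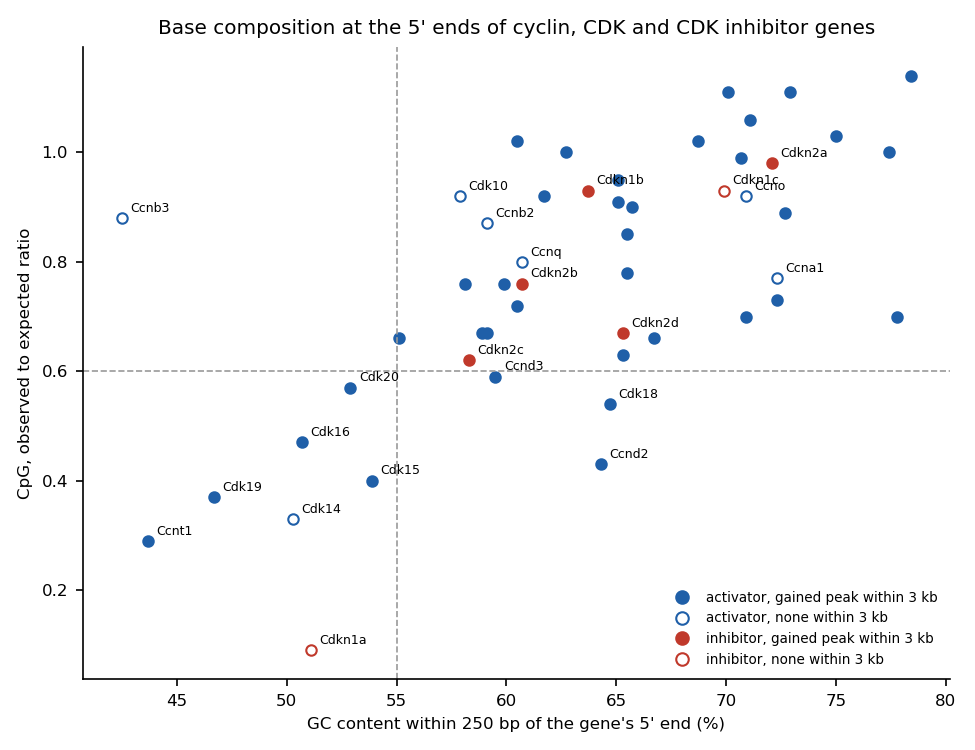
GC content (x axis, in percent) and observed to expected CpG ratio (y axis) of the 501 bp around the 5′ end of the gene record for the 50 members, activators in blue and inhibitors in red, filled for genes with a gained peak within 3 kb. The dashed lines mark 55% GC and a ratio of 0.6, and open points lie on both sides of them, with *Cdkn1a* (51.1% GC, ratio 0.09) lowest and *Cdkn1c* (69.9%, 0.93) among the CpG-rich genes.

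Composition did not sort the individual members into those with and without a peak. *Cdkn1a* had the lowest CpG ratio of all members at the 5′ end of its record, 0.09, and no peak. *Cdkn1c*, at 69.9% GC and a ratio of 0.93, had none either, nor did *Ccna1* at 72.3% GC and *Ccno* at 70.9% GC. *Ccnd2* and *Cdk15*, which had no CpG-rich TSS, did have peaks, and *Ccnb3*, at 42.5% GC, was the third such gene and had none.

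Activators and inhibitors had peaks of near-equal median height, although the inhibitors give only 5 values. The strongest peak of a gene had a median score of 587.2 tags over the 36 activators with a peak (95% interval of the median 489.5 to 792.5, quartiles 440.6 to 815.9). Over the 5 inhibitors the median was 588.0 tags, with a range of 139.0 to 1953.0. For all protein-coding genes with a peak the median was 460.5 tags, and for those with a CpG-rich TSS it was 504.0 tags, inside the interval of the activators. Of the 41 members, 28 lay above the median of 460.5 tags, 16 above the upper quartile of 693.0 and 4 below the lower quartile of 292.0, namely *Ccnc*, *Cdk15*, *Cdkn2a* and *Cdk18*. With no replicate error on a score, small differences between genes, such as those between *Ccne1* and *Ccne2*, cannot be read.

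Gained peaks sat close to the start sites. Of the 59 peaks, 23 covered a TSS, 31 lay within 500 bp without covering one, 2 lay at 501 to 1000 bp and 3 farther away. Within 500 bp were 91.5% of them, against 81.2% of the 14389 gene-peak pairs of all protein-coding genes. The centre of the peak was upstream of the nearest TSS for 44 of 59 (74.6%), against 65.3%, with a median at -60.0 bp against -44.0 bp. Activator peaks were upstream in 41 of 52 cases and inhibitor peaks in 3 of 7, and 6 of the 7 inhibitor peaks lay in a 5′ untranslated region, against 27 of the 52 activator peaks. Of the 7 inhibitor peaks, 3 belonged to *Cdkn2c*, all in a 5′ untranslated region, so peaks are not separate genes here. No share in 5′ untranslated regions over all protein-coding genes is given for comparison. A TSS was covered at 22 members (44.0%, 20 activators and 2 inhibitors), against 27.8% of all protein-coding genes. With only the 5′ end of each gene record as its TSS, 14 members (28.0%) were covered, against 19.7%. Counted over genes with a peak only, the share was 53.7% of members and 54.3% of all protein-coding genes. Of the 59 peaks, 15 lay in intergenic DNA, and 6 lay within 3 kb of a TSS of another protein-coding gene.

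**Figure D4:**
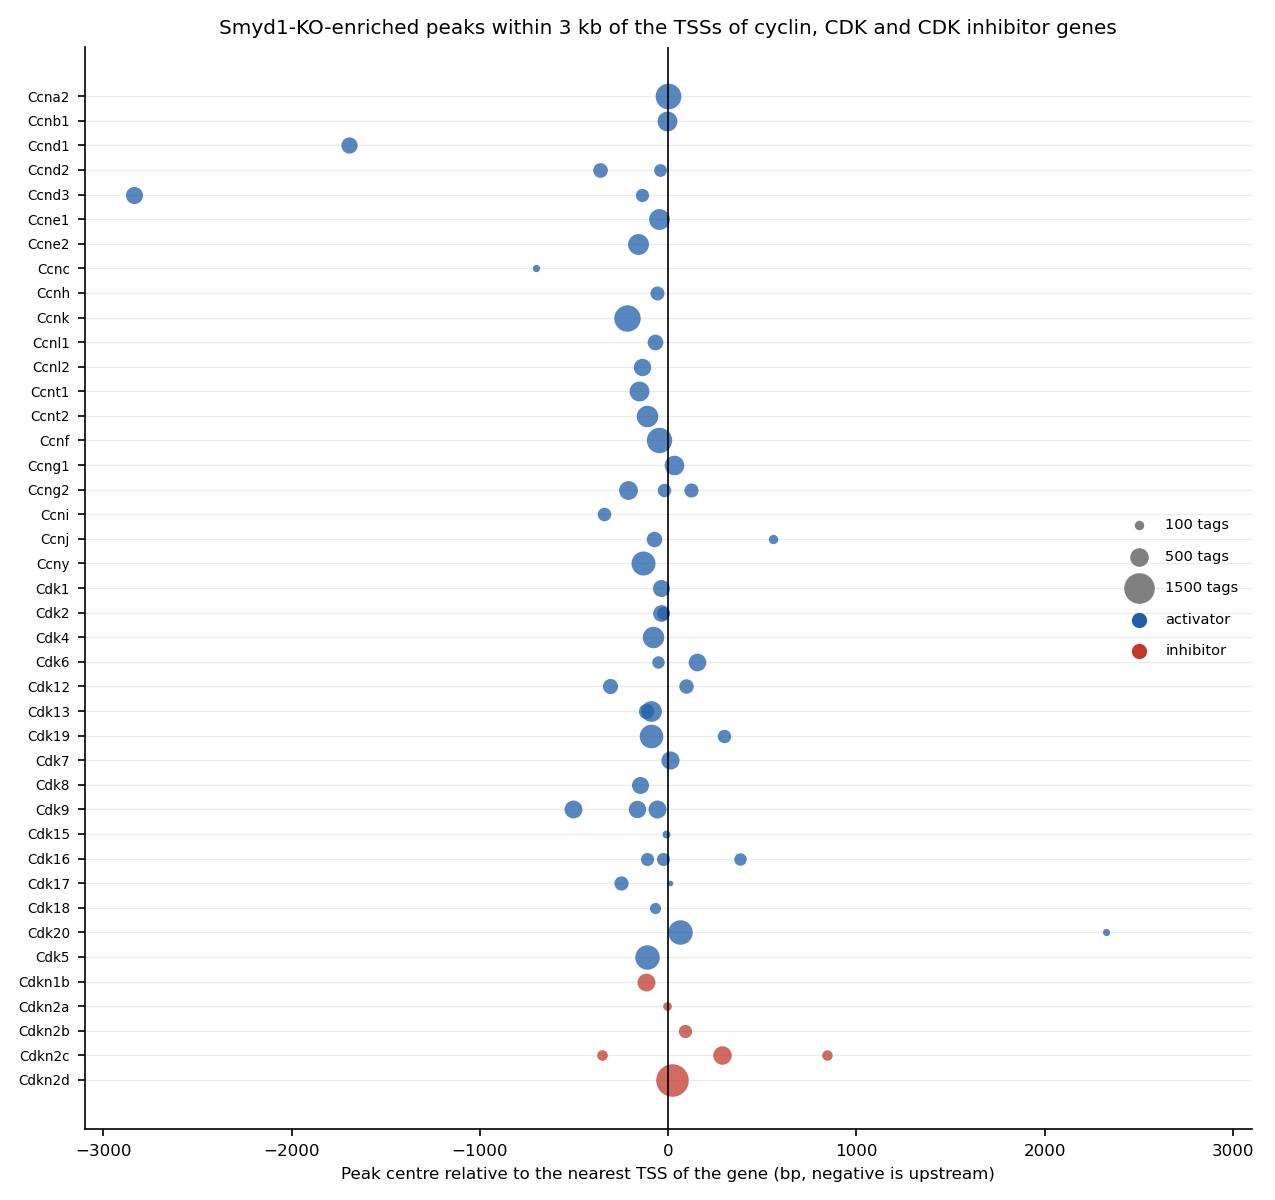
Centre of each of the 59 gained peaks relative to the nearest TSS of its gene, in bp with upstream negative, 1 line per gene, with the area of a point in proportion to its score, activators in blue and inhibitors in red. Most points stand within 500 bp of that TSS, and the farthest are the second peak of *Ccnd3* upstream and that of *Cdk20* downstream.

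Some members had several gained peaks near a TSS. At least 2 lay within 3 kb at 14 members (28.0%), against 11.8% of all protein-coding genes. Counted over genes with a peak only, the share was 34.1% of members and 23.0% of all protein-coding genes. Among genes with a CpG-rich TSS and at least 5 TSSs, it was 11 of 33 members (33.3%) against 23.4% of protein-coding genes, with no interval computed. CDKs had a median of 6.5 annotated TSSs, and no such background was set beside the CDKs alone. CDKs made up 9 of the 14, cyclins 4 and inhibitors 1 (*Cdkn2c*). The transcription CDKs *Cdk9*, *Cdk12*, *Cdk13* and *Cdk19* and the cell cycle CDKs *Cdk2* and *Cdk6* were among them. The peaks of *Cdk9* added up to 1750.5 tags, the highest sum of any activator.

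Other genes of the cell cycle machinery were taken from a list of partners and regulators, drawn up with earlier results of these data known. Of 51 listed genes, 45 (88.2%, interval 76.1 to 95.6%) had a gained peak within 3 kb of a TSS, against 51.2% of all protein-coding genes. Of the 44 listed genes with a CpG-rich TSS, 39 (88.6%, interval 75.4 to 96.2%) had one, and the 77.3% of all protein-coding genes with such a TSS lay inside that interval. With peaks near 1 coding gene only, the count was 33 of 51 (64.7%), against 39.0% of all protein-coding genes. Kinases, phosphatases and adaptors that act on CDKs had a gained peak within 3 kb at 8 of 8 genes, with 1303.0 tags at *Wee1*, which holds *Cdk1* in check, and 657.0, 326.5 and 603.0 tags at the phosphatase genes *Cdc25a*, *Cdc25b* and *Cdc25c*, which release it. Pocket proteins and E2F factors, the targets of the G1 kinases, had such a peak at 11 of 13 genes, with 529.0 tags at *Rb1*, 982.0 at *E2f1* and 1301.5 at *E2f3*, and *E2f6* and *E2f7* had none. The MuvB complex, which switches cell cycle genes off or on, and its partners had such a peak at 7 of 7 genes. Genes that act in or regulate the degradation of cyclins and inhibitors had such a peak at 5 of 7, without *Skp1a* and *Cdc20*. The other partners of transcription CDKs had such a peak at 4 of 4 genes and p53 with its regulators at 3 of 3. Genes that mark replication and proliferation had such a peak at 7 of 9, with 829.0 tags at *Mki67* and 736.0 at *Pcna*, and without *Top2a* and *Mcm2*. Positive and negative regulators of division thus both had gained peaks within 3 kb in this list. A peak lay over a TSS at 16 of the 51 genes (31.4%), against 44.0% of members and 27.8% of all protein-coding genes. Counted over genes with a peak only, it was 35.6% of the list, 53.7% of members and 54.3% of all protein-coding genes.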

How the data were processed

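The symbol rule for the members, the roles and the gene lists were set with earlier results of these data known. The authors aligned reads to mm10 with BWA-MEM, called peaks with HOMER 4.10.3 on the combined libraries of a genotype (per the header of their own peak sheets), kept peaks that differed at least 2-fold and passed a Poisson test and annotated them with ChIPseeker 1.20.0. The deposited value is a signal, the authors' tag value of each peak in the genotype that it was higher in, and how it was scaled or averaged, and how duplicates, the Tn5 offset and blacklisted regions were treated, are not given in the sources used here. Peaks were linked to every TSS of GENCODE M21 (mm10, the same sequence as GRCm38) within 3 kb of the nearer peak edge, with Python 3.11.15, pysam 0.24.0 and scipy 1.17.1, and the linking was tested on simulated data. Genes of the mitochondrial chromosome were left out. No replicate test or set test was run, since the lists hold pooled calls, and counts were read beside those of all protein-coding genes. Values are given for all inhibitors, all A, B, D and E type cyclins, *Cdk1*, *Cdk2*, *Cdk4* and *Cdk6*, all members without a peak, and the 5 highest and 5 lowest of the others. Other genes named as partners of these or with several peaks, the CpG classes by any TSS and the counts for genes with at least 5 TSSs were chosen after the values were seen. Alternatives changed the distance, the TSSs, the score minimum, the point measured from and the treatment of shared peaks.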

Additional observations from a re-analysis of the deposited data

How the results depend on the processing

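None of 61 alternative values reversed a direction. The number of members with a TSS under a gained peak was 22 with all annotated TSSs and 14 with only the 5′ end of each gene record. The difference in share between activators and inhibitors, 12.3 points as reported, ran from 3.0 points with peaks near 1 coding gene only to 21.9 points with the 5′ end of the gene record or with peaks at or above the median score, all within its interval. The other counts stayed within 1.5 times the value reported and the median scores within their intervals. The number of members with a peak ran from 37, with peaks near 1 coding gene only (chosen after seeing the data), to 44 within 10 kb. With the 5′ end of the gene record *Ccnt1*, *Cdk19* and *Cdkn2a* were lost, with peaks at or above the median score of 180.5 tags *Ccnc*, *Cdk15* and *Cdkn2a*, and with each peak given to the nearest gene *Ccni*, *Ccnk* and *Ccnt2*. The background moved as well, from 39.0% of protein-coding genes with peaks near 1 coding gene only to 59.6% within 10 kb. No paired analysis was possible because the libraries of a genotype were pooled before the peaks were called. A gene without a gained peak may be open in both genotypes, since peaks that did not differ were not used here.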

Other observations

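Between 3 and 10 kb from their TSSs, 19 members had 21 further gained peaks, with a median score of 333.0 tags. Of these, 14 lay within 3 kb of a TSS of another protein-coding gene. The strongest, 1310.0 tags, lay 8166 bp from *Cdk2* and within 3 kb of a TSS of *Rab5b*. Others lay in 5′ untranslated regions, such as a peak of 929.5 tags in *Kansl2* near *Ccnt1*, a peak of 594.5 tags in *Faf1* near *Cdkn2c* and a peak of 221.0 tags in *Cenph*, a kinetochore gene near *Ccnb1*. The 7 peaks that lay near no other protein-coding TSS included 1 of 426.0 tags 8147 bp downstream of the *Cdkn1b* start and 2 of 76.5 and 58.0 tags within an intron of *Cdk14*.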
